A study of Mus musculus with 12 samples.

Results

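The genes described here are 10 components of bone morphogenetic protein (BMP) signalling, measured by RNA sequencing in mouse jejunal enteroids that lacked either Hdac1 or Hdac2. They were selected by symbol, with earlier results of these data known. All 10 were found among the 18929 genes listed in at least 1 of the 2 deposited count tables. They comprise the ligands Bmp2 and Bmp4, the type I receptor Bmpr1a, the mediator Smad4, the inhibitory SMADs Smad6 and Smad7, and the Id genes Id1, Id2, Id3 and Id4. Enteroids are cultures of epithelium grown from isolated intestinal crypts. Hdac1 and Hdac2 encode related histone deacetylases, enzymes that remove acetyl groups from histones and other proteins.

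BMP ligands bind pairs of type I and type II receptors at the cell surface, which phosphorylate SMAD1, SMAD5 and SMAD9; these then join SMAD4 in the nucleus and act on target genes. The Id genes are among the best known targets, and they encode helix-loop-helix proteins that lack a DNA-binding region and hold E proteins away from DNA. SMAD6 and SMAD7 feed back to block the pathway, and in the intestine BMP signalling is known to be stronger towards the villus and held low around the crypt base by secreted antagonists such as Noggin.

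Groups of 4 libraries each were compared: control, Hdac1-deficient and Hdac2-deficient. Deletion came from floxed Hdac1 or Hdac2 alleles crossed to a villin-Cre transgene, whose promoter is active in intestinal epithelium, on a mixed C57BL/6J, 129SV and CD1 background. The controls are called wild-type in the labels, and the study's text uses both wild-type and villin-Cre control for them. Every group was kept for 5 days in ENR medium, which contains EGF, the BMP antagonist Noggin and R-spondin 1, so all values below were measured with Noggin present. Crypts for the cultures came from 1 mouse of each genotype, hence genotype and mouse of origin cannot be told apart, and nothing says that the 4 libraries of a group were separate animals. The p-values therefore measure the spread among these libraries, which may be technical. In bulk RNA, fewer cells of a type and less RNA per cell cannot be told apart.

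Library totals ran from 20693200 to 30658628 counts. Each targeted gene was lowest in the libraries labelled for its deletion. Levels are given in CPM, counts scaled to the library total after its adjustment by a TMM factor. Hdac1 stood at 90.6 ± 2.76 CPM (SD, n = 4) in control libraries against 4.23 ± 0.834 CPM in libraries without Hdac1. Hdac2 stood at 137 ± 3.85 CPM in control and 75.9 ± 2.89 CPM in Hdac2-deficient libraries, a 1.79-fold fall. Counts were per gene, and how many of the remaining Hdac2 reads lie outside the deleted part was not examined, so "without Hdac2" below refers to the genotype. The study reports loss of each targeted gene in its own cultures by RT-PCR, Western blot and immunofluorescence. Hdac1 also fell by 16.3% without Hdac2 and Hdac2 fell by 17.6% without Hdac1. The 7 epithelial markers summed to 6029 to 6303 CPM in control, 6529 to 6706 CPM without Hdac1 and 7807 to 8128 CPM without Hdac2. Of 10 mesenchymal markers only 3 were listed, at 0.959 to 2.27 CPM in sum. Pdgfra had 0 to 5 counts a library, and Col1a2, Col3a1, Dcn, Lum, Acta2, Des and Foxl1 were not listed. Of 8 endothelial and immune markers 3 were listed, at 1.03 to 1.21 CPM in control, 1.85 to 3.01 CPM without Hdac1 and 2.78 to 3.99 CPM without Hdac2. Most of that sum was Itgam, at 0.835 CPM in control, 2.02 CPM without Hdac1 and 2.68 CPM without Hdac2. Itgam rose more than 2-fold in both mutants (log2 1.28 and 1.69, edgeR adjusted p = 9e-06 and 8.5e-08). Ptprc had 0 to 4 counts. Of 5 neural markers 3 were listed, at 0.675 to 1.31 CPM in sum over the 12 libraries.

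Loss of either deacetylase was accompanied by a large fall of Smad6 and of Bmp4, a rise of Smad7, Id1 and Id3, and a moderate fall of Bmpr1a, while the Smad4 level did not pass the test. Id2 and Bmp2 moved in opposite directions in the 2 mutants, lower without Hdac1 and higher without Hdac2. In Hdac1-deficient enteroids 8 of the 10 genes passed the test at an adjusted p of at most 0.05 (edgeR quasi-likelihood test), 3 higher and 5 lower, where 64.6% of all genes tested passed, 32.7% higher and 31.9% lower. In Hdac2-deficient enteroids 9 of the 10 passed, 6 higher and 3 lower, against 62.3% of all genes, 31.4% higher and 30.9% lower. The median log2 fold change of the 10 genes was -0.10 without Hdac1 and 0.26 without Hdac2, and that of all genes tested was -0.004 in each. Changes of more than 2-fold were found for 2 of the 10 genes without Hdac1 (Bmp4 and Smad6) against 10.6% of all genes (6.87% higher, 3.71% lower). Without Hdac2 they were found for 3 of 10 (Id1, Bmp4 and Smad6) against 8.3% (5.45% higher, 2.84% lower). Both comparisons use the same 4 control libraries, so their values are set side by side and the difference between the mutants was tested directly in a fit of the 12 libraries. In that direct test 4 of the 10 genes differed (Id1, Id2, Bmp2 and Bmpr1a), where 45.9% of all genes did (22.3% higher and 23.7% lower without Hdac1), and all 4 were lower without Hdac1. The differences of these 4 genes were under 2-fold, and at any p no member of the 10 passed 2-fold by edgeR or DESeq2, where 5.62% of all genes did with an adjusted p of at most 0.05 (2.74% higher, 2.89% lower). The median log2 difference of the 10 genes between Hdac1-deficient and Hdac2-deficient libraries was -0.20, and that of all genes was 0.005.

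**Figure D1:**
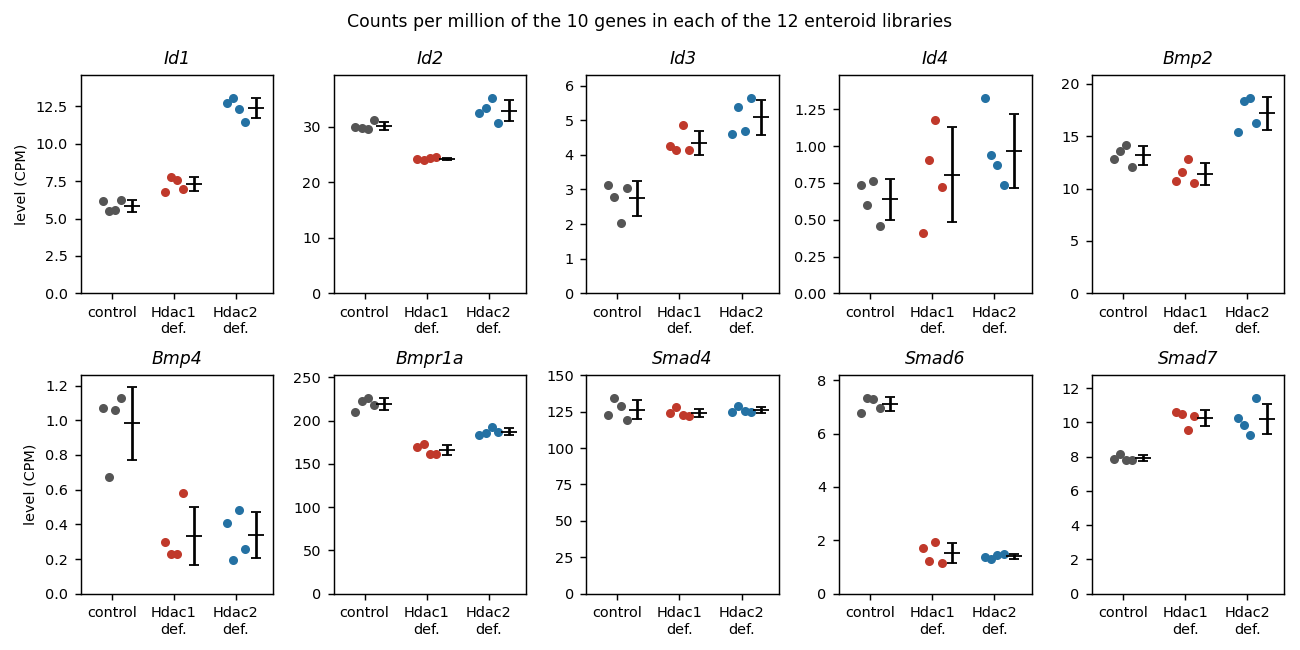
Level of each of the 10 genes in each of the 12 libraries, in CPM on linear axes that start at 0 (dots: libraries, bars: mean ± SD of 4; def., deficient). Smad6 sits between 6.77 and 7.32 CPM in control and between 1.16 and 1.93 CPM in all 8 mutant libraries, while the 3 groups of Smad4 lie over one another.

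The inhibitory SMADs went in opposite directions. Smad6, which blocks chiefly the BMP branch, was counted at 6.77, 7.32, 7.30 and 6.97 CPM in the 4 control libraries. Its values were 1.73, 1.23, 1.93 and 1.16 CPM in Hdac1-deficient libraries and 1.36, 1.29, 1.45 and 1.48 CPM in Hdac2-deficient libraries. Every mutant library lay far below every control library, and the mutants overlapped each other. Smad6 fell 4.63-fold without Hdac1 (log2 -2.21, SE 0.13, adjusted p = 1.2e-11) and 5.05-fold without Hdac2 (log2 -2.34, SE 0.11, adjusted p = 2e-13). The direct log2 difference between the mutants was 0.12, with a 95% interval from -0.23 to 0.48. Smad7, which blocks both the BMP and the TGF-β branches, stood at 7.88, 8.17, 7.83 and 7.81 CPM in control. It reached 10.6, 10.5, 9.54 and 10.4 CPM without Hdac1, and 10.3, 9.85, 9.29 and 11.4 CPM without Hdac2. All 8 mutant libraries were above all 4 controls. The log2 fold change of Smad7 was 0.38 in both mutants (SE 0.07 and adjusted p = 8.1e-05 without Hdac1, SE 0.08 and adjusted p = 0.00021 without Hdac2), and the direct difference was 0.01 with an interval from -0.14 to 0.15.

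Because both genes are read from the same library, their ratio does not depend on the scaling between libraries. Control libraries held 86.0 to 93.2 Smad6 counts for every 100 Smad7 counts. Hdac1-deficient libraries held 11.2 to 20.3 and Hdac2-deficient libraries 12.9 to 15.6, so control and mutant libraries did not overlap in this ratio. Smad4, the mediator that signalling SMADs of both branches share, gave 126.3 ± 6.55 CPM in control, 124.2 ± 2.78 CPM without Hdac1 and 125.9 ± 2.06 CPM without Hdac2 (SD, n = 4 each). The log2 fold change of Smad4 had an interval from -0.09 to 0.07 without Hdac1 (adjusted p = 0.83) and from -0.07 to 0.08 without Hdac2 (adjusted p = 0.89).

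Smad6 (chromosome 9, 63953076 to 64022059, minus strand of GRCm38) and Bmp4 (chromosome 14, 46383520 to 46390669, minus strand) were the 2 genes with more than a 2-fold fall in both mutants, and the 250 bases before their RefSeq starts are given here so that their promoters can be compared. They are Smad6 at chr9:64022060-64022309 and Bmp4 at chr14:46390670-46390919 (RefSeq, build GRCm38.p6), both minus strand, written 5′ to 3′ in the direction of the gene. Capitals mark the 4-letter SMAD-binding element GTCT or its complement AGAC, and the GC box GGGCGG or its complement CCGCCC.
Smad6: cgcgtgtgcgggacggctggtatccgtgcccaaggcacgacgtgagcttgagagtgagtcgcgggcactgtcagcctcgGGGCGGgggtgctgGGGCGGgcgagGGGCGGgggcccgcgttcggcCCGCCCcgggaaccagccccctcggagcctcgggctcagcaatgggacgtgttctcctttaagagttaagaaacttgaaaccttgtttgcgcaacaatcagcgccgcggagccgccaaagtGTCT
Bmp4: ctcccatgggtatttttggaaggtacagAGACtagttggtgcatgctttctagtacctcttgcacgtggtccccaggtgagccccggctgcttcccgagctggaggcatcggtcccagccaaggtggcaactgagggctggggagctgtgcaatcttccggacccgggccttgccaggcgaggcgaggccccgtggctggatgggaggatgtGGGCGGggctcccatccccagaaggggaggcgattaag
The Smad6 window held 27 CpG pairs, 4 GC boxes and 1 GTCT, and the Bmp4 window held 11 CpG pairs, 1 GC box and 1 AGAC. The median over 32851 mouse promoter windows of the same length was 6 CpG pairs, 32.7% of those windows held a GC box on either strand and 82.9% held GTCT on either strand. The SMAD1/5 element GGCGCC, found in 9.59% of windows, was in neither. A match of so few letters describes the sequence and is not a bound site. In the same build Id1 lies at chromosome 2, 152736251 to 152737410 (plus strand), Bmp2 at chromosome 2, 133552159 to 133562885 (plus), and Bmpr1a at chromosome 14, 34410734 to 34503341 (minus). Id2 lies at chromosome 12, 25093799 to 25097140 (minus), Id3 at chromosome 4, 136143497 to 136145755 (plus), and Id4 at chromosome 13, 48261228 to 48266026 (plus). Windows were found for 6 of the 10 genes (Bmp4, Bmpr1a, Id2, Id3, Id4 and Smad6). Bmpr1a held 36 CpG pairs and 4 GC boxes, and Id4 held 35 and 5. Id2 and Id3 each held 18 CpG pairs, with 1 and 2 GC boxes. GGCGCC was in the windows of Bmpr1a, Id2 and Id4. The windows of Bmpr1a, Id2 and Id3 include 141, 161 and 250 bases of their own exons.

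**Figure D2:**
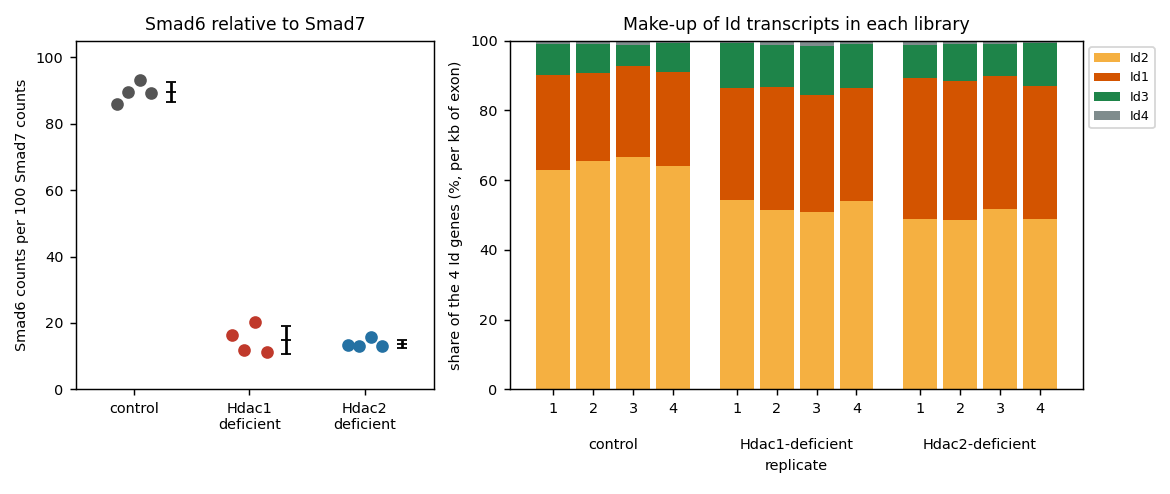
Left, Smad6 counts per 100 Smad7 counts in each library (dots) with mean ± SD of 4 (bars). Right, share of each Id gene in the summed CPM per kb of exon of the 4 Id genes, one bar per library: Id2 takes the largest share in every bar, and its mean share is 64.7% in control, 52.8% without Hdac1 and 49.5% without Hdac2.

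Of the ligands, Bmp4 was close to the limit of detection. It had 32, 19, 32 and 27 counts in the control libraries, 8, 7, 7 and 16 counts without Hdac1, and 11, 5, 10 and 6 counts without Hdac2. The largest mutant count was smaller than the smallest control count, and the mutants overlapped. In CPM this was 0.983 ± 0.210 in control, 0.334 ± 0.168 without Hdac1 and 0.336 ± 0.132 without Hdac2 (SD, n = 4 each), a log2 fold change of -1.55 (SE 0.30, adjusted p = 0.00014) and -1.54 (SE 0.30, adjusted p = 0.00014). The direct difference of -0.01 had a wide interval, from -0.82 to 0.79, so a difference between the mutants inside that interval was not detectable at these counts. Bmp4 is a mostly mesenchymal ligand in the intestine. The summed mesenchymal markers ran from 1.23 to 1.63 CPM in control, from 1.84 to 2.27 CPM without Hdac1 and from 0.959 to 1.597 CPM without Hdac2. Most of that sum was Pdgfrb, at 47 to 59 counts without Hdac1, and its part in the Bmp4 values was not tested.

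Bmp2, a ligand made by villus epithelium, was more abundant. Its levels were 12.8, 13.5, 14.2 and 12.02 CPM in control, 10.7, 11.6, 12.8 and 10.5 CPM without Hdac1, and 15.4, 18.3, 18.6 and 16.3 CPM without Hdac2. Every Hdac2-deficient library was above every control, whereas the Hdac1-deficient libraries overlapped the controls. The log2 fold change of Bmp2 was 0.39 without Hdac2 (SE 0.07, adjusted p = 7.3e-05) and -0.19 without Hdac1 (SE 0.07, adjusted p = 0.029). The latter lost its call with DESeq2 (adjusted p = 0.053) and when control replicate 2 or 3 or Hdac1-deficient replicate 1 or 4 was left out (log2 -0.18 to -0.15, adjusted p from 0.066 to 0.1). Measured directly, Bmp2 was lower without Hdac1 than without Hdac2 by a log2 difference of -0.58 (95% interval -0.74 to -0.43, adjusted p = 4.2e-07). There were 4.96 to 9.38 Bmp4 counts per 100 Bmp2 counts in control, 1.80 to 5.54 without Hdac1 and 1.07 to 2.63 without Hdac2.

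Bmpr1a encodes the type I receptor used by both ligands and was the most abundant of the 10 messages per kb of exon in control, with Smad4 next to it. It measured 209, 223, 226 and 218 CPM in control, 170, 173, 161 and 162 CPM without Hdac1 and 183, 185, 193 and 187 CPM without Hdac2. The 3 groups did not overlap. The log2 fold change of Bmpr1a was -0.38 without Hdac1 (SE 0.03, adjusted p = 7.1e-09) and -0.22 without Hdac2 (SE 0.03, adjusted p = 2.9e-06), and the mutants differed by -0.17 (95% interval -0.23 to -0.10, adjusted p = 0.0001). An antisense gene, Gm17110, shares 290 exon bases with Bmpr1a on the other strand and had 1 to 10 counts. Genes on the other strand that share exon bases with Id4, Bmp4 and Rgma were not listed, while Ppie, which shares 133 exon bases with Bmp8b on the other strand, was listed. Whether the counting used strand is not known.

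**Figure D3:**
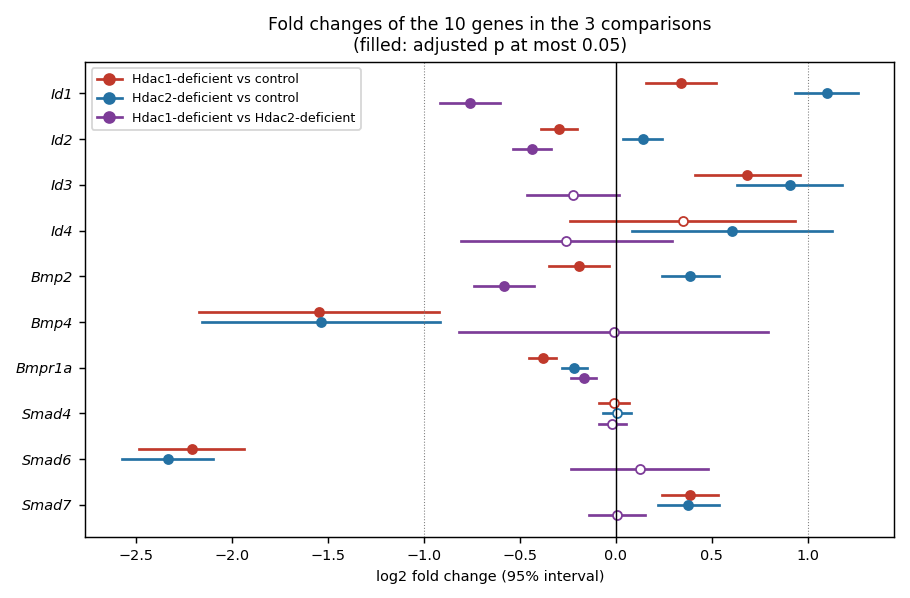
Log2 fold change of each of the 10 genes (x axis, with 95% intervals) in the Hdac1-deficient and Hdac2-deficient comparisons with control and in the direct comparison of the mutants. Filled points have an adjusted p of at most 0.05, and dotted lines mark a 2-fold change: Smad6 and Bmp4 lie beyond it on the left in both mutants and Id1 beyond it on the right without Hdac2.

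Of the Id genes, Id1 and Id3 rose in both mutants. Id1, a direct BMP target in many cell types, was measured at 6.17, 5.48, 5.54 and 6.22 CPM in control. It was at 6.79, 7.80, 7.60 and 6.999 CPM without Hdac1 and at 12.7, 13.1, 12.3 and 11.5 CPM without Hdac2. The 3 groups did not overlap, in the order control, Hdac1-deficient, Hdac2-deficient. Id1 rose 1.26-fold without Hdac1 (log2 0.34, SE 0.09, adjusted p = 0.0019) and 2.14-fold without Hdac2 (log2 1.10, SE 0.08, adjusted p = 8.6e-11). The direct log2 difference, Hdac1-deficient minus Hdac2-deficient, was -0.76 (95% interval -0.92 to -0.60, adjusted p = 4.6e-09).

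Id3, which often follows Id1, was lower in level: 3.12, 2.79, 2.02 and 3.05 CPM in control, 4.24, 4.14, 4.85 and 4.13 CPM without Hdac1, and 4.61, 5.39, 4.69 and 5.64 CPM without Hdac2. All mutant libraries exceeded all controls, and the mutants overlapped. Its log2 fold change was 0.68 without Hdac1 (SE 0.13, adjusted p = 0.00012) and 0.91 without Hdac2 (SE 0.13, adjusted p = 4.4e-06), with a direct difference of -0.22 (interval -0.46 to 0.02, adjusted p = 0.12). Id3 lies 6.6 Mb from Hdac1 on chromosome 4, the chromosome that carries the floxed allele of Hdac1.

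Id2, which is expressed in epithelial progenitors, had the highest level of the 4 per kb of exon. It was at 29.9, 29.7, 29.6 and 31.2 CPM in control, 24.2, 24.1, 24.3 and 24.5 CPM without Hdac1, and 32.4, 33.4, 35.2 and 30.7 CPM without Hdac2. Hdac1-deficient libraries were lowest, with no overlap, while Hdac2-deficient libraries overlapped the controls. Id2 fell without Hdac1 (log2 -0.30, SE 0.05, adjusted p = 1e-05) and rose without Hdac2 by little (log2 0.14, SE 0.05, adjusted p = 0.016), and the latter call was lost when libraries were scaled by size alone (log2 0.11, adjusted p = 0.059) or Hdac2-deficient replicate 3 was left out (log2 0.11, adjusted p = 0.069). The mutants differed by -0.44 (interval -0.53 to -0.34, adjusted p = 2e-08). Id4 was scarcely counted, with 22, 17, 23 and 11 counts in control, 11, 28, 36 and 20 without Hdac1 and 36, 24, 18 and 17 without Hdac2, and the 3 groups overlapped. The log2 fold change of Id4 was 0.60 without Hdac2 (SE 0.25, adjusted p = 0.041) and 0.35 without Hdac1 (interval -0.24 to 0.93, adjusted p = 0.29). The Id4 call without Hdac2 was lost with DESeq2 (adjusted p = 0.11) and when control replicate 2 or 4 or Hdac2-deficient replicate 1 or 2 was left out (log2 0.40 to 0.63, adjusted p from 0.061 to 0.19).

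Within a library, the ratio of Id1 to Id2 was higher in both mutants: 18.5 to 20.6 Id1 counts per 100 Id2 counts in control, 28.1 to 32.4 without Hdac1 and 35.1 to 39.2 without Hdac2, with no overlap between groups. As a share of summed Id CPM per kb of exon, Id1 took 26.4 ± 0.811% in control, 33.3 ± 1.37% without Hdac1 and 39.2 ± 1.13% without Hdac2 (SD, n = 4 each). Id3 took 7.998 ± 1.23%, 12.8 ± 0.778% and 10.4 ± 1.32% in the same order.

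Over the 12 libraries, the genes whose log2 CPM followed Id1 most closely were Acp1 (Pearson r = 0.994), Mlkl (0.988) and 1700010I14Rik (0.985). For Id2 they were Pgap2 (0.988), Fam101b (0.984) and Areg (0.979), an EGF receptor ligand. For Id3 they were Gm19680 (0.964), Tradd (0.963) and Gipc2 (0.956), and for Id4 Cdk14 (0.816), Cdk5rap3 (0.811) and Trim34b (0.796). These were the highest values among 14509 genes, and the libraries share 3 group means and their depth, so the r values are descriptive.

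In control enteroids the order of CPM per kb of exon was Bmpr1a (34.5), Smad4 (34.0), Id2 (12.4), Id1 (5.04), Bmp2 (3.70), Smad6 (2.21), Smad7 (1.75), Id3 (1.53), Bmp4 (0.437) and Id4 (0.166). Bmpr1a and Smad4 overlapped between libraries, as did Smad7 and Id3. In the mutants Smad6 stood below Id3, at 0.472 CPM per kb without Hdac1 and 0.435 without Hdac2, where Id3 was at 2.42 and 2.84. Bmpr1a and Smad4 were the highest of the 10 in all 3 groups, with Smad4 first in both mutants.

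The rest of the pathway gave a mixed picture. Of 62 further genes of BMP signalling and Id partners, 41 were listed and 32 could be tested against control. Without Hdac1 20 of the 32 passed, 13 up and 7 down, and without Hdac2 23 of the 32 passed, 12 up and 11 down. Their median log2 fold changes were 0.016 and 0.015. Of all genes, 64.6% and 62.3% passed. Only 7 of 16 secreted antagonists were listed, without Noggin or the gremlins. Of the 4 antagonists tested, 2 were higher in each mutant, where 32.7% of all genes were higher without Hdac1 and 31.4% without Hdac2. The other 2, Twsg1 and Fstl3, passed in neither. Twsg1, at 58.4 CPM in control, was at log2 0.04 (edgeR adjusted p = 0.38) and -0.01 (adjusted p = 0.89). The larger rise was that of Nbl1, also called DAN, which binds BMP ligands outside the cell. Nbl1 rose from 1.71 ± 0.177 CPM in control to 6.11 ± 0.488 CPM without Hdac1 and 9.25 ± 1.09 CPM without Hdac2 (SD, n = 4), or 3.63-fold (adjusted p = 3.6e-11) and 5.47-fold (adjusted p = 1.9e-13). Its direct log2 difference was -0.60 (adjusted p = 8.1e-06). Nbl1 lies 9.54 Mb from Hdac1 on the same chromosome.

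Among the ligands of that list, all 4 tested passed in both mutants, 3 higher and 1 lower, where 64.6% of all genes passed without Hdac1 and 62.3% without Hdac2. Bmp8b rose from 6.84 CPM in control to 10.98 CPM without Hdac1 (log2 0.70, adjusted p = 5.6e-07) and 18.0 CPM without Hdac2 (log2 1.41, adjusted p = 3.8e-12), with a direct log2 difference of -0.71 (adjusted p = 1.9e-08). Bmp8a rose as well (log2 1.33, adjusted p = 0.00013, and 1.39, adjusted p = 0.0001), but Bmp8a and Bmp8b are closely related paralogs, how the counting divided reads between them is uncertain, and they lie 6.17 and 6.38 Mb from Hdac1. Bmp3, which opposes other BMPs, was 60.6, 110.6 and 65.9 CPM in control, Hdac1-deficient and Hdac2-deficient libraries, and Bmp7 was 54.1, 27.7 and 27.9 CPM. Both were outside the rule for named genes and were chosen after their values were seen, as the ligands of the list with the most counts. The log2 fold changes of Bmp3 were 0.88 and 0.13, and those of Bmp7 were -0.95 and -0.94; all 4 passed the test.

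Of the 7 further receptors and co-receptors tested, 1 rose and 3 fell without Hdac1 and 2 fell without Hdac2, and of the 4 signalling SMADs tested 1 rose and 1 fell without Hdac1 and 1 rose and 2 fell without Hdac2, where 32.7% and 31.4% of all genes rose and 31.9% and 30.9% fell. Bmpr2, the type II receptor, had log2 fold changes of -0.22 without Hdac1 (adjusted p = 0.021) and -0.03 without Hdac2 (adjusted p = 0.75), and Acvr1, another type I receptor, -0.06 (adjusted p = 0.43) and 0.04 (adjusted p = 0.62). Smad1 was at -0.01 (adjusted p = 0.84) and -0.11 (adjusted p = 0.012), and Smad5 at -0.15 (adjusted p = 0.013) and -0.11 (adjusted p = 0.046). Outside the rule for named genes and chosen after their values were seen, Acvr2b, another type II receptor, fell in both mutants (log2 -0.39, adjusted p = 0.0048, and -0.49, adjusted p = 0.00097) and Smad3, of the TGF-β branch, rose in both (log2 0.20 and 0.26). Their relatives Acvr2a and Smad2 passed in neither mutant. Acvr2a was at log2 0.10 (edgeR adjusted p = 0.056) and 0.07 (adjusted p = 0.11), and Smad2 at -0.01 (adjusted p = 0.87) and -0.09 (adjusted p = 0.093). The co-receptor Rgma fell from 1.29 CPM in control to 0.160 CPM without Hdac1 and 0.662 CPM without Hdac2 (log2 -2.92, adjusted p = 1.1e-07, and -0.98, adjusted p = 0.0018). Rgma differed between the mutants by -1.95 (adjusted p = 0.00016), the only one of the 34 genes of the list tested in that comparison with a difference of more than 2-fold. Of 8 intracellular modulators 5 rose without Hdac1 and none fell, and 6 rose without Hdac2 and 1 fell, against 32.7% of all genes higher and 31.9% lower without Hdac1 and 31.4% and 30.9% without Hdac2. Of the 3 E proteins to which Id proteins bind, 1 was higher and 1 lower without Hdac1, and all 3 were lower without Hdac2, by log2 fold changes no larger in size than 0.21. Of all genes, 64.6% passed without Hdac1, and 30.9% were lower without Hdac2. The 2 other transcriptional targets that could be tested, Atoh8 and Tgif1, are named outside the rule. Neither was higher in a mutant, 1 was lower without Hdac1 (31.9% of all genes) and 2 without Hdac2 (30.9%). Atoh8 was at log2 -0.62 (edgeR adjusted p = 0.002) and -0.81 (adjusted p = 0.00036). Tgif1 was at -0.09 (adjusted p = 0.066) and -0.11 (adjusted p = 0.031).

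**Figure D4:**
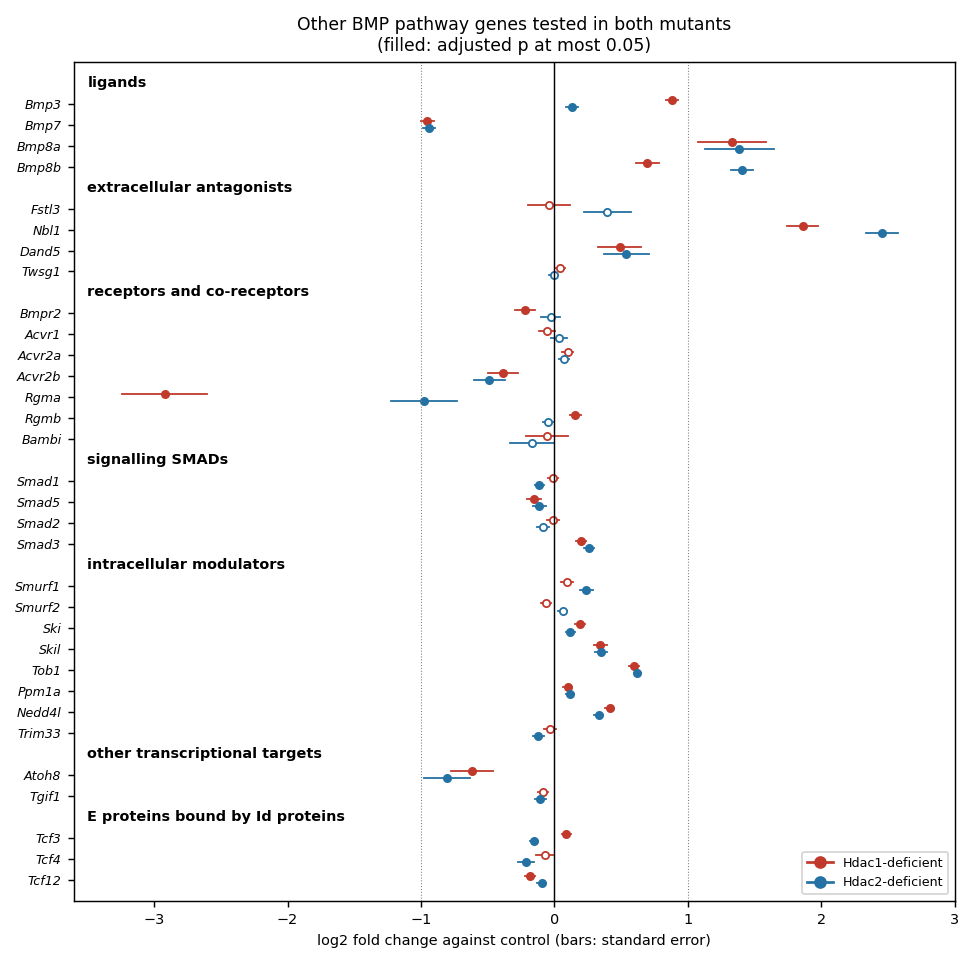
Log2 fold change against control (x axis, bars: standard error) of the 32 other BMP pathway genes tested in both mutants, grouped by role. Filled points have an adjusted p of at most 0.05 and dotted lines mark 2-fold: Nbl1 and Bmp8a lie beyond it on the right in both mutants, Bmp8b on the right without Hdac2, and Rgma on the left without Hdac1.

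Markers of position along the crypt and villus also changed in both mutants. Of 7 crypt stem cell markers 6 were lower and Tnfrsf19 was higher in both mutants, where 31.9% and 30.9% of all genes were lower. Their sum was 4638 to 4771 CPM in control, 2779 to 3226 CPM without Hdac1 and 2491 to 2723 CPM without Hdac2. Of 9 villus enterocyte markers 8 were higher and Ada was lower without Hdac1, and all 9 were higher without Hdac2, where 32.7% and 31.4% of all genes were higher. The sum of the villus markers was 8388 to 8872 CPM in control, 15270 to 17490 CPM without Hdac1 and 12260 to 13770 CPM without Hdac2. The part of this shift in the values of the 10 genes was not tested.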

How the data were processed

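Poly(A) RNA of 12 enteroid libraries was sequenced as paired 100-base reads with a kit that keeps strand. Alignment by the authors was to GRCm38, using STAR (2.4.0f1 in the submitters' processing notes). The counting program and its strand setting were not given in the sources used here. The deposited tables hold raw counts per gene, 1 table for each mutant with the same control counts in both, and list genes with at least 10 counts in sum. The deposited score columns hold the authors' own comparisons (fold change, mean level, p-values of DESeq and edgeR), and none was used.

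Counts were tested with edgeR 4.0.16 in R 4.3.3 (TMM scaling, filterByExpr, robust quasi-likelihood F test, Benjamini-Hochberg over all genes tested). Standard errors were taken as the log2 fold change over the square root of F. Each mutant was compared with control in its own table, and the mutants with each other in 1 fit of 12 libraries. Calls required an adjusted p of at most 0.05, alone or with more than a 2-fold change. CPM used TMM factors, and lengths and positions came from GENCODE M21. A floor of 3 counts corresponded to 0.0971 to 0.145 CPM. The script was tested on simulated data in which only well-counted genes were changed, each by more than 2-fold. Smaller changes, and genes counted as low as Bmp4 and Id4, were not covered. DESeq2 1.42.0, other scalings and filters, a replicate block and leaving out each library were tried as alternatives.

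The 10 genes and the lists were chosen with earlier results of these data known. Named were all 10 genes and, of the pathway list by role, those changed more than 2-fold in either mutant (at most 4), with Bmpr2, Acvr1, Smad1 and Smad5 in any case. For each Id gene, the 3 genes most like it by Pearson r were named.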

Additional observations from a re-analysis of the deposited data

Results flagged for a closer look

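Of the 10 genes, 4 responded differently to loss of Hdac1 and loss of Hdac2 by the direct test of the 2 mutants. Of all genes tested, 45.9% did. The log2 difference, Hdac1-deficient minus Hdac2-deficient, was -0.76 for Id1, -0.44 for Id2, -0.58 for Bmp2 and -0.17 for Bmpr1a. For Id1 and Bmpr1a no library of one mutant overlapped the other mutant or control. For Id2 and Bmp2 the changes against control had opposite signs, although the weaker of each pair (Id2 without Hdac2, Bmp2 without Hdac1) overlapped control. In 2 of 30 combinations of gene and group, 1 library lay far from the other 3. Id3 was at 4.85 CPM in Hdac1-deficient replicate 3, above the other libraries of that group, and Bmp4 was at 0.672 CPM in control replicate 2, below the other controls. Chance alone flags about 1 in 20 such combinations.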

How the results depend on the processing

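Of 489 values of the 10 genes under alternatives, 456 kept their direction and their side of the threshold, 15 lost their call (Bmp2 without Hdac1, Id2 and Id4 without Hdac2, as given above; Id4 also with library size alone, without a filter and in 1 fit of 12 libraries) and 18 changed sign, none of which had been called. Without a filter on low counts, 2335 genes changed more than 2-fold without Hdac1 in place of 1507, and 1792 without Hdac2 in place of 1162; the filter sets how many genes are tested. The changes of sign concern log2 values near 0. Smad4 without Hdac1 ran from -0.0349 to 0.0171 over the libraries left out, above 0 without control replicate 2. Smad4 without Hdac2 became -0.0239 with library size alone, -0.0007 with no filter, -0.0034 in 1 fit of 12 libraries, and ran from -0.0242 to 0.0337 over the libraries left out, below 0 without control replicate 1 or 4 or Hdac2-deficient replicate 2. Between the mutants, Bmp4 became 0.0172 and Smad4 0.0095 with library size alone, and leaving out a library gave -0.4005 to 0.1828 for Bmp4, -0.0318 to 0.0613 for Smad7 and -0.0269 to 0.2274 for Smad6 (below 0 without Hdac1-deficient replicate 3).

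Replicate numbers are shared between groups. Deviations of same-numbered libraries from their group means were weakly correlated (r from -0.0455 to 0.0913). Of 8 libraries in each comparison, 4, 3 and 4 correlated best with their own number, each among 4 candidates. These values do not settle whether the numbers pair the samples. With a replicate block 1501, 1158 and 812 genes changed more than 2-fold (8923, 8891 and 6706 at any size), and it changed no call of the 10 genes. Depth limits Bmp4 and Id4, at 5 to 36 counts a library.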
